A study of Mus musculus with 6 samples.

Results

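Potassium channel genes were taken as every gene symbol in the table that starts with Kcn, which gave 70 of 17027 symbols and 186 of 50829 isoforms. By name they fall into 31 voltage-gated (Kv) subunits, 9 inward rectifiers (Kir), 7 tandem-pore leak channels (K2P), 7 calcium- or sodium-activated channels, 12 accessory subunits and 4 antisense or overlapping transcripts. The cells were retinal ganglion cells (RGCs), the output neurons of the retina, from WT mice whose strain is labelled C57/6NCrl. Each of 3 ages has 2 libraries: E18 (embryonic day 18), P5 (postnatal day 5) and Adult, which means 8 weeks old. The labels name no agent and no allele other than WT. Cells were captured on antibody to Thy1, a surface protein of RGCs, after macrophages had been removed by panning; amacrine cells are named as removed too, in the protocol of the samples. RNA was polyA-selected and sequenced in paired reads.

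Potassium channels let potassium leave the cell and so set the resting potential, shape the falling phase of the spike and limit the firing rate. Kv channels open on depolarization, Kir channels pass current best near or below the resting potential, K2P channels leak at rest, and the calcium- or sodium-activated channels couple potassium current to the entry of those ions. Accessory subunits bind the pore-forming ones and change their gating or their delivery to the membrane. In Müller glia of the retina, Kir channels are known for clearing the potassium that neurons release.

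Values are the authors' FPKM, a level corrected for transcript length and library size, given per isoform and here summed per gene, and read depth is unknown because FPKM keeps no count. Whether both libraries of an age came from different animals is not in the labels, so the p-values reflect the spread between these libraries alone, which may be technical. Changes are differences in log2(FPKM + 1), which understate the change of low genes, from limma over 14390 genes with a mean of at least 1 FPKM. A gene was called where its Benjamini-Hochberg adjusted p was under 0.05.

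The RGC label was checked against markers of RGCs and of the other cells a retina holds. The summed level of the 17 listed of 18 RGC markers was 5554 to 6325 FPKM in the 4 younger libraries and 816 and 621 FPKM in the Adult libraries. Of these markers, 16 were lower in Adult than at P5 by limma, and none of the 17 was at 0 in any age. All 13 rod markers summed to 5.87 to 12.4 FPKM in the younger libraries, and to 6314 in Adult library 1 and 768 in Adult library 2. Over the same libraries, 14 listed of 15 Müller glia and astrocyte markers went from 235 to 287 FPKM to 1593 and 1916. The sum of the amacrine markers, 12 listed of 12, went from 869 to 1214 FPKM to 1703 and 2069. Of 10 tested amacrine markers, 9 rose from P5 and Calb2 fell, from 815 and 678 FPKM to 253 and 156. Chat and Slc5a7 were not tested and stayed at or under 1.6 FPKM in every library. Cone markers (8 listed of 9) went from 1.41 to 6.17 FPKM to 86.2 and 82.2. The sum of the bipolar list (11 of 12) went from 90.3 to 189 FPKM to 170 and 155. Of 10 tested genes of that list, 9 rose from P5. Isl2 fell, as most RGC markers did, from 72.02 and 93.997 FPKM to 4.52 and 1.60. It gave 140 and 180 of the E18 sums of 160 and 189, so the bipolar sum hides the rise of the other tested genes. The only listed one of 8 microglia and macrophage markers, C1qa, stayed at or under 1.25 FPKM. Horizontal cell markers (4 of 6) went from 7.20 to 13.9 FPKM to 39.9 and 29.4. Prox1 and Calb1 rose from P5, and Onecut1 and Onecut2 fell. Endothelial markers (4 of 8) went from 4.28 to 11.4 FPKM to 37.0 and 41.3. Pericyte and smooth muscle markers (4 of 8) went from 0.483 to 2.78 FPKM to 95.3 and 23.5. Vtn alone gave 86.4 and 10.3 of these Adult sums. Tagln was lower in Adult (0.605 and 0.244) than at P5 (1.11 and 0.766). Pigment epithelium markers (2 of 8) went from 1.499 to 3.16 FPKM to 89.7 and 91.8. Rlbp1, which is also in the glial list, gave 89.4 and 91.1 of these. Best1 was 0.804 to 1.36 FPKM in the younger libraries and 0.364 and 0.640 in Adult. Oligodendrocyte markers (4 of 8) went from 17.9 to 24.3 FPKM to 11.8 and 13.5. The part of these cells in the Adult values below was not tested, and in bulk RNA fewer cells of a type and less RNA per cell cannot be told apart.

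The summed level of all 70 symbols was 429 and 486 FPKM at E18, 608 and 570 at P5 and, in the Adult pair, 1264 and 1387. The ages did not overlap. Kv genes made up 239 and 266 FPKM of it at E18 and 649 and 688 in Adult, and accessory genes 102 and 119 at E18 and 347 and 409 in Adult. Kir genes went from 12.5 and 13.9 FPKM at E18 through 23.9 and 19.0 at P5 to 146 and 151 in Adult, while K2P genes stayed between 44.8 and 63.2 in all 6 libraries. At E18 the highest gene by mean FPKM (± SD, n = 2) was Kcnab2, a Kv beta subunit, at 59.4 ± 8.60, and Kcnk10, the TREK-2 leak channel, was also among the highest at 36.4 ± 6.88. In Adult, Kcnab2 still led at 118 ± 2.58, followed by Kcnh2, the erg channel, at 77.3 ± 13.9.

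**Figure D1:**
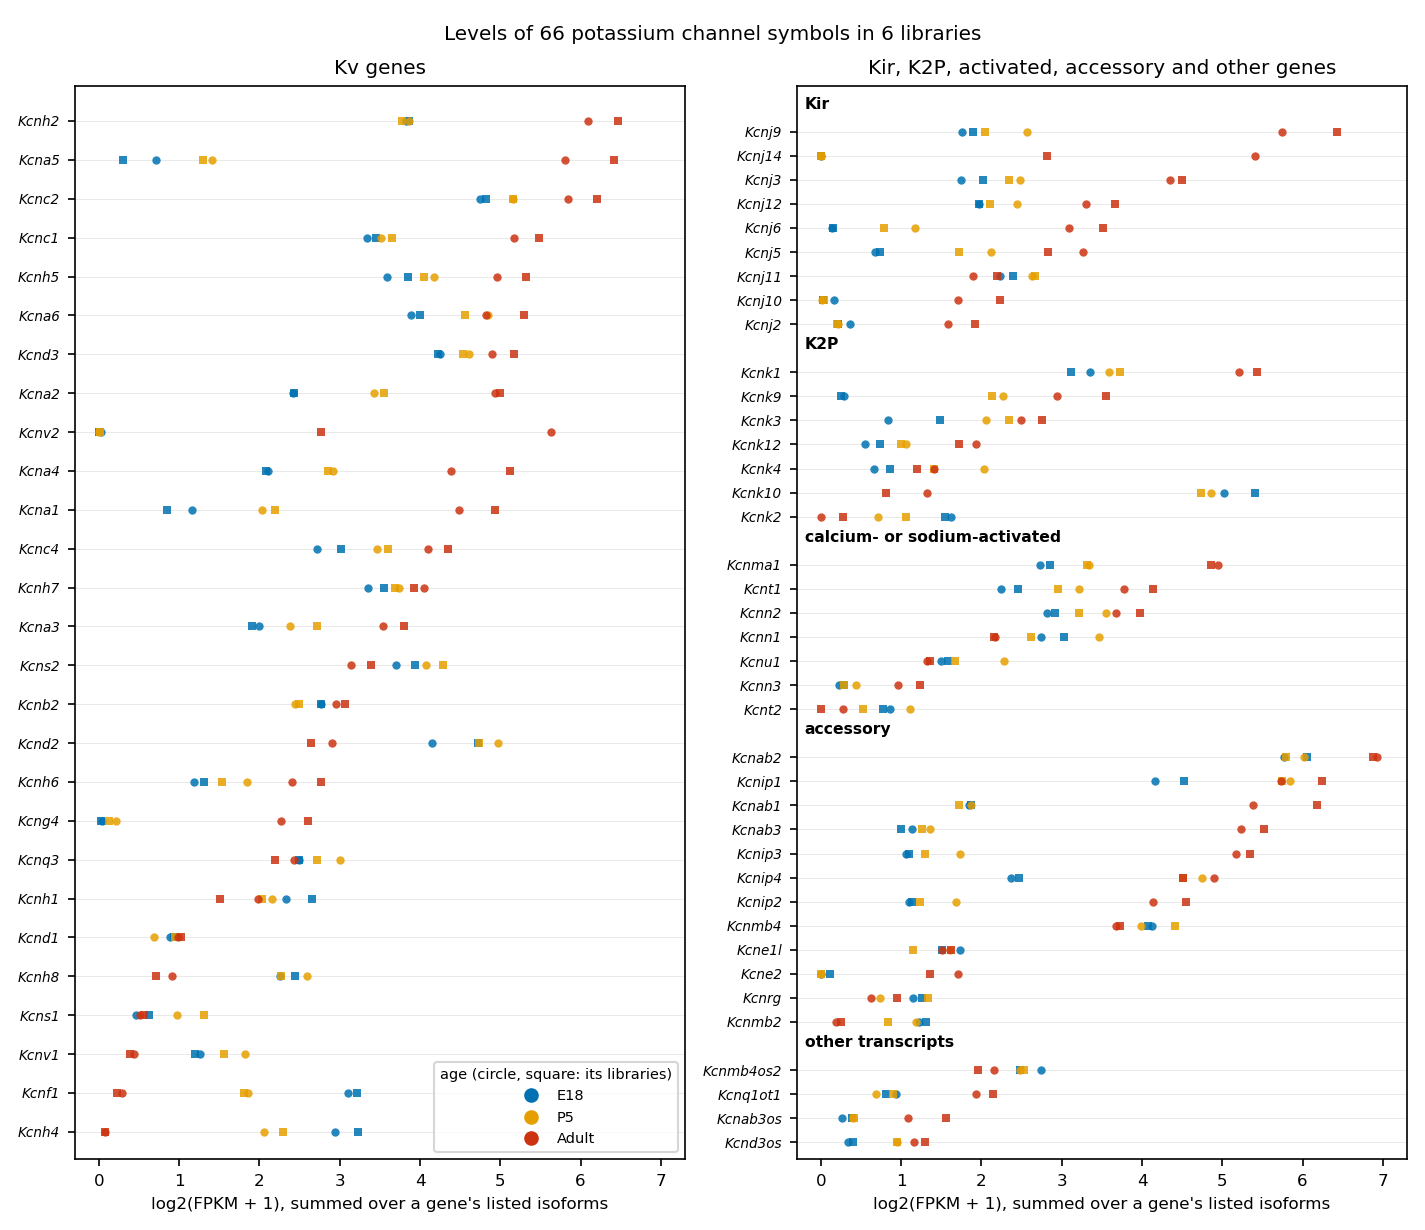
Level of 66 of the 70 potassium channel symbols as log2(FPKM + 1) in the 6 libraries, coloured by age, with Kv genes on the left and the other groups on the right, each sorted by its Adult mean. Kcna5, Kcnj9, Kcnab1, Kcnab3 and Kcnip3 lie far apart between the younger ages and Adult, and Kcnk10, Kcnh4 and Kcnf1 are lowest in Adult.

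From E18 to P5, 7 of the 60 tested channel genes rose and 2 fell, where 5.52% of all tested genes were called higher and 4.95% lower. The genes that rose were the KChIP genes Kcnip4 and Kcnip1, the Kv1 genes Kcna2 and Kcna1, the leak channel Kcnk9, the G-protein-gated Kir gene Kcnj5 and the BK channel Kcnma1. Kcnf1 and Kcnh4, both Kv genes, fell. The median change was 0.37 over the 60 and -0.03 over all tested genes. With values rescaled to TPM (each library summing to the same total) and the filter set at a mean of 1 TPM, 67 were tested, of which 21 rose and 2 fell, beside 9.35% and 2.96% of all genes tested that way; of the 60, 20 rose and 2 fell. The comparison asks which genes change as RGCs mature around birth.

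Kcnip4 encodes a KChIP, a calcium-binding partner of Kv4 channels, and its rise of 2.21 (SE 0.16, adjusted p = 0.005) was the largest of the 7 on this log2 scale, while by the ratio of the means it rose 5.48 times and Kcnk9 17.5 times. Kcnip4 measured 4.18 and 4.54 FPKM at E18, 25.8 and 21.9 at P5 and, in the Adult pair, 28.7 and 21.9, so the step lay between E18 and P5, and the Adult libraries overlapped those of P5. Its relative Kcnip1 measured 16.9 and 21.9 FPKM at E18, 56.5 and 52.7 at P5 and, in the Adult pair, 52.1 and 74.7, a rise of 1.46 (SE 0.20, adjusted p = 0.015), and here too the Adult libraries overlapped those of P5. Kcnk9, the acid-sensitive leak channel TASK-3, was near 0 before birth: 0.226 and 0.187 FPKM at E18, 3.81 and 3.39 at P5 and, in the Adult pair, 6.65 and 10.7. It rose by 1.93 (SE 0.23, adjusted p = 0.011) to P5 and by a further 1.04 (SE 0.23, adjusted p = 0.0089) to Adult, with no overlap between ages.

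Kcna2 and Kcna1 encode the Kv1.2 and Kv1.1 subunits, which form low-threshold channels along axons. Kcna2 measured 4.33 and 4.40 FPKM at E18, 9.73 and 10.7 at P5 and, in the Adult pair, 29.7 and 30.9, and rose by 1.07 (SE 0.12, adjusted p = 0.0096) to P5. Kcna1 measured 1.23 and 0.795 FPKM at E18, 3.09 and 3.56 at P5 and, in the Adult pair, 21.4 and 29.6, and rose by 1.11 (SE 0.21, adjusted p = 0.028). Both rose in each step, and their libraries did not overlap between ages. Kcnj5, a Kir subunit opened by G proteins, measured 0.590 and 0.665 FPKM at E18, 3.34 and 2.28 at P5 and, in the Adult pair, 8.65 and 6.08, a rise of 1.21 (SE 0.23, adjusted p = 0.029) by P5. Kcnma1, the pore of the large-conductance BK channel, measured 5.65 and 6.22 FPKM at E18, 9.10 and 8.93 at P5 and, in the Adult pair, 29.9 and 28.0, and its rise of 0.53 (SE 0.12, adjusted p = 0.04) was the smallest of the 7.

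Kcnf1 encodes Kv5.1, an electrically silent subunit that works only beside Kv2 subunits, and it fell at both steps: 7.58 and 8.30 FPKM at E18, 2.62 and 2.49 at P5 and, in the Adult pair, 0.218 and 0.171. Its change was -1.33 (SE 0.16, adjusted p = 0.011) by P5 and -1.57 (SE 0.16, adjusted p = 0.00037) from P5 to Adult. Kcnh4, an elk-type Kv gene, measured 6.67 and 8.33 FPKM at E18, 3.15 and 3.91 at P5 and, in the Adult pair, 0.0568 and 0.0529, with changes of -0.91 (SE 0.18, adjusted p = 0.034) and -2.10 (SE 0.18, adjusted p = 0.00024). Both genes were at or under 0.22 FPKM in the Adult libraries. Few of the 9 calls remained when a library of these ages was left out: 0 without E18 replicate 1 or without P5 library a, Kcnip4 alone without E18 replicate 2, and Kcnip4, Kcna2, Kcnk9 and Kcnf1 without P5 library b. Without each of the 6 libraries, adjusted p ran from 0.018 to 0.059 for Kcnip4 and from 0.064 to 0.28 for Kcnma1, while every change kept its sign.

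From P5 to Adult, 35 of the 60 rose and 12 fell, where 26.2% of all tested genes were called higher and 33.7% lower. Set against E18, 40 of the 60 were higher in Adult and 10 lower, with backgrounds of 25.3% and 34.4%. Of these, 34 were higher and 8 lower against both younger ages. The median change was 0.87 against P5 and 1.39 against E18, and -0.07 and -0.11 over all tested genes. With values rescaled to TPM, 23 of the 60 rose and 20 fell from P5, and 37 were higher and 16 lower than at E18. Among the 67 genes tested that way the counts were 24 and 24, and 39 and 19. Of all genes tested in TPM, 11.9% were called higher and 56.7% lower than at P5, and 14.1% and 54.0% against E18, and their medians moved to -0.71 and -0.65. Relative to the median of all tested genes, the median of the 60 was 0.94 in FPKM and 0.98 in TPM against P5. Of the 60, 6 (Kcnj6, Kcnj10, Kcnj14, Kcng4, Kcnv2 and Kcnq1ot1) averaged under 1 FPKM at both younger ages and so passed the filter through Adult alone. Kcna5 (means of 0.433 FPKM at E18 and 1.56 at P5) and Kcnk12 (0.564 and 1.04) also passed only through their Adult values. With all 70 tested the counts were 39 and 15 against P5 and 45 and 12 against E18. Both Adult comparisons share the Adult libraries, which also carry the marker differences given above.

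**Figure D2:**
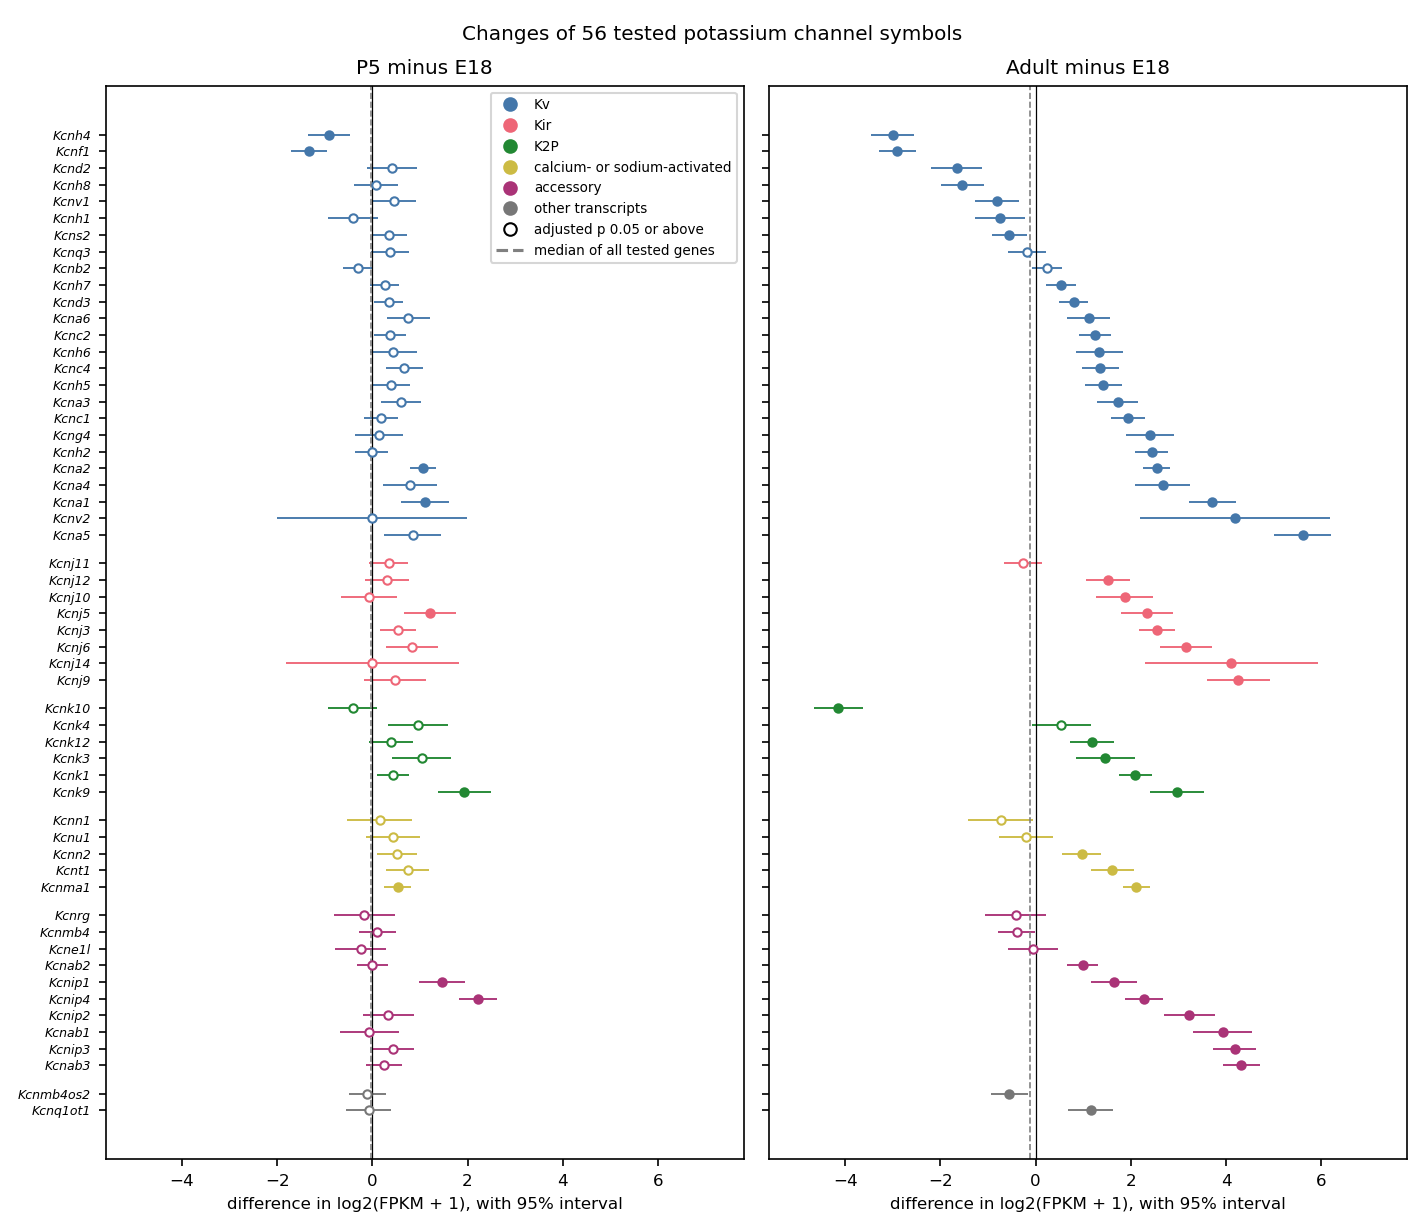
Difference in log2(FPKM + 1) with its 95% interval for 56 of the 60 tested symbols, P5 minus E18 on the left and Adult minus E18 on the right, coloured by group; filled points have an adjusted p under 0.05, and the dashed line is the median of all tested genes. On the left 9 points are filled, and on the right 47, from Kcnk10 at -4.14 to Kcna5 at 5.61.

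Among Kv1 genes, 5 of 6 rose from P5 to Adult, and all 6 were higher in Adult than at E18. Among these, Kcna5 had the largest change of the 60, though it passed the filter only through its Adult values. It encodes Kv1.5, an ultrarapid delayed rectifier best known from heart muscle, and measured 0.631 and 0.235 FPKM at E18, 1.65 and 1.46 at P5 and, in the Adult pair, 54.8 and 84.5. The P5 to Adult change was 4.76 (SE 0.25, adjusted p = 5.2e-05), a ratio of the means of 44.8. Kcna4, an inactivating Kv1 subunit, measured 3.29 and 3.23 FPKM at E18, 6.54 and 6.20 at P5 and, in the Adult pair, 20.0 and 33.9, and Kcna3 2.98 and 2.74 FPKM at E18, 4.2004 and 5.58 at P5 and, in the Adult pair, 10.6 and 12.9. They rose from P5 by 1.88 (SE 0.24, adjusted p = 0.00095) and 1.12 (SE 0.18, adjusted p = 0.0022). Kcna6 measured 13.8 and 15.0 FPKM at E18, 27.7 and 22.6 at P5 and, in the Adult pair, 27.2 and 38.4, was not called from P5, with a change of 0.36 (SE 0.19, adjusted p = 0.15), and was higher than at E18 by 1.11 (SE 0.19, adjusted p = 0.0028).

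Because a share within a library does not depend on how libraries were scaled, the make-up of the Kv1 set was also taken. Kcna6 held 52.5% and 56.8% at E18, 52.3% and 45.0% at P5 and, in the Adult pair, 16.6% and 16.7% of the summed Kv1 FPKM. Kcna5 held 2.40% and 0.890% at E18, 3.11% and 2.92% at P5 and, in the Adult pair, 33.5% and 36.7%. The leading Kv1 transcript was thus Kcna6 in the 4 younger libraries and Kcna5 in both Adult ones. In GRCm38, Kcna5, Kcna1 and Kcna6 lie in that order on chromosome 6 (126532551 to 126740674, all on the minus strand, by GENCODE vM21) with gaps of 104984 and 61944 bases, and Kcna3 and Kcna2 are neighbours on chromosome 3 with 63075 bases between them.

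All 3 Kv beta subunit genes, cytoplasmic partners of Kv1 channels, rose from P5 to Adult. Kcnab1, whose product speeds inactivation, measured 2.60 and 2.65 FPKM at E18, 2.66 and 2.29 at P5 and, in the Adult pair, 40.8 and 71.6. Kcnab3 measured 1.19 and 0.999 FPKM at E18, 1.56 and 1.39 at P5 and, in the Adult pair, 36.7 and 45.0, and Kcnab2 53.3 and 65.5 FPKM at E18, 63.5 and 54.6 at P5 and, in the Adult pair, 120 and 117. Their changes from P5 were 3.99 (SE 0.26, adjusted p = 9.4e-05), 4.07 (SE 0.16, adjusted p = 2.8e-05) and 0.996 (SE 0.13, adjusted p = 0.0012). None was called by P5, with changes of -0.06, 0.24 and -0.01 and adjusted p from 0.36 to 0.99. Kcnab2 held 93.4% to 94.7% of the summed beta subunit FPKM in the younger libraries and 60.8% and 49.99% in Adult.

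Kcnb2 is a Kv2 gene, and Kv2 channels are delayed rectifiers clustered on cell bodies. It measured 5.78 and 5.79 FPKM at E18, 4.46 and 4.61 at P5 and, in the Adult pair, 6.73 and 7.38 and rose by 0.54 (SE 0.13, adjusted p = 0.012) from P5, a sign that flipped to -0.11 with TPM.

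The Kv3 genes Kcnc1, Kcnc2 and Kcnc4, whose channels open and close fast and allow high firing rates, rose from P5 to Adult. Kcnc1 measured 9.08 and 9.95 FPKM at E18, 10.4 and 11.6 at P5 and, in the Adult pair, 35.0 and 43.9, and Kcnc2, the highest of these 3 at every age, 25.8 and 27.3 FPKM at E18, 34.7 and 34.8 at P5 and, in the Adult pair, 56.2 and 72.7. Their changes from P5 were 1.75 (SE 0.15, adjusted p = 0.0002) and 0.86 (SE 0.14, adjusted p = 0.0025). Kcnc4 measured 5.55 and 7.09 FPKM at E18, 10.04 and 11.2 at P5 and, in the Adult pair, 16.1 and 19.4; its change of 0.69 (SE 0.16, adjusted p = 0.011) became -0.02 with TPM and was not called without P5 library a or without Adult replicate 2, with adjusted p up to 0.065.

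The Kv4 genes, which carry the somatodendritic A-type current, moved apart. Kcnd2 measured 16.7 and 25.5 FPKM at E18, 30.5 and 25.6 at P5 and, in the Adult pair, 6.47 and 5.26, a change of -2.08 (SE 0.22, adjusted p = 0.00045) from P5. Kcnd3 measured 17.95 and 17.7 FPKM at E18, 23.5 and 22.2 at P5 and, in the Adult pair, 28.8 and 35.0, a rise of 0.46 (SE 0.13, adjusted p = 0.02) that became -0.27 with TPM, became -1.49 when only annotated isoforms were summed (-1.12 against E18), and was not called without P5 library b or without Adult replicate 2 (adjusted p up to 0.087). Kcnd2 held 47.0% and 57.8% at E18, 55.8% and 52.6% at P5 and, in the Adult pair, 17.9% and 12.8% of the summed Kv4 FPKM. Kcnd3 held 50.6% and 40.1% at E18, 43.1% and 45.5% at P5 and, in the Adult pair, 79.5% and 84.7%. Kcnd3 was already above Kcnd2 in E18 library 1 and below it in the other 3 younger libraries, and it held most of the sum in both Adult libraries.

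The 7 Kcnh genes encode the eag, erg and elk channels. From P5 to Adult, 3 rose and 2 fell, beside 26.2% and 33.7% of all tested genes. Kcnh2, which closes slowly after a spike and is best known for ending the cardiac action potential, measured 13.1 and 13.5 FPKM at E18, 13.6 and 12.8 at P5 and, in the Adult pair, 67.5 and 87.1, a change of 2.45 (SE 0.14, adjusted p = 7.4e-05) after one of -0.01 by P5. Kcnh5, an eag channel, measured 10.99 and 13.4 FPKM at E18, 17.1 and 15.6 at P5 and, in the Adult pair, 30.2 and 38.8 and rose by 1.02 (SE 0.16, adjusted p = 0.0023), and the low Kcnh6 rose by 0.90 (SE 0.20, adjusted p = 0.0096). Kcnh8, an elk channel like Kcnh4, measured 3.80 and 4.43 FPKM at E18, 5.03 and 3.84 at P5 and, in the Adult pair, 0.876 and 0.642, a change of -1.62 (SE 0.19, adjusted p = 0.00067). Kcnh7 and Kcnh1 were not called from P5. Against E18, Kcnh7 was higher by 0.53 (-0.04 with TPM) and Kcnh1 lower, with a change of -0.75, calls lost without E18 replicate 1 or Adult replicate 1 for Kcnh7, and without either E18 library or Adult replicate 2 for Kcnh1 (adjusted p up to 0.095 and 0.16). Within the set, Kcnh2 held 23.6% to 26.7% of the summed FPKM in the younger libraries and 55.5% and 58.7% in Adult.

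Kcnq3, a subunit of M-type channels that hold back repeated firing, measured 4.64 and 4.62 FPKM at E18, 7.00 and 5.59 at P5 and, in the Adult pair, 4.40 and 3.58. It fell from P5 by 0.55 (SE 0.17, adjusted p = 0.029), a call lost without either E18 library, P5 library a or Adult replicate 2 (adjusted p up to 0.12).

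Silent Kv subunits form no channel alone and modify Kv2. Besides Kcnf1, Kcns2 and Kcnv1 fell from P5 to Adult. Kcns2 measured 12.1 and 14.3 FPKM at E18, 15.9 and 18.5 at P5 and, in the Adult pair, 7.84 and 9.49, with a change of -0.91 (SE 0.15, adjusted p = 0.003), and Kcnv1 1.40 and 1.30 FPKM at E18, 2.53 and 1.94 at P5 and, in the Adult pair, 0.355 and 0.311, with -1.27 (SE 0.19, adjusted p = 0.0018). Kcng4, a marker of alpha-type RGCs, was at 0.015 to 0.16 FPKM in the younger libraries and 3.80 and 5.10 in Adult, a rise of 2.27 (SE 0.21, adjusted p = 0.00028). Like Kcnv2, it passed the filter through Adult alone. Kcnv2, the Kv8.2 subunit known from rod and cone photoreceptors, was at or under 0.022 FPKM in the younger libraries, 48.5 in Adult library 1 and 5.83 in Adult library 2. The level is 27.2 ± 30.2 FPKM in Adult (SD, n = 2), and the change from P5 of 4.19 (SE 0.82, adjusted p = 0.0055) was 2.76 without Adult replicate 1 and 5.62 without Adult replicate 2.

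Of the 8 tested Kir genes, 7 rose from P5 to Adult and 1 fell; of the 7, Kcnj6, Kcnj10 and Kcnj14 passed the filter through Adult alone, so the count is no support for a rise of the group. The 4 genes of the G-protein-gated GIRK channels, which open when inhibitory transmitter receptors are active, all rose. Kcnj9 (GIRK3) measured 2.39 and 2.73 FPKM at E18, 4.94 and 3.11 at P5 and, in the Adult pair, 52.7 and 84.9, and became the highest Kir gene in both Adult libraries. Kcnj3 (GIRK1) measured 2.35 and 3.04 FPKM at E18, 4.59 and 4.07 at P5 and, in the Adult pair, 19.4 and 21.7. Kcnj6 (GIRK2) measured 0.104 and 0.108 FPKM at E18, 1.25 and 0.729 at P5 and, in the Adult pair, 7.54 and 10.4, against 0.590 and 0.665 FPKM (E18), 3.34 and 2.28 (P5) and 8.65 and 6.08 (Adult) for Kcnj5 (GIRK4). From P5 they changed by 3.78 (SE 0.27, adjusted p = 0.00013), 2.01 (SE 0.16, adjusted p = 0.00016), 2.32 (SE 0.23, adjusted p = 0.00034) and 1.13 (SE 0.23, adjusted p = 0.0059). Kcnj5 and Kcnj6 were the lowest of these genes at E18, and Kcnj6 was at 0.10 and 0.11 FPKM there.

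Promoters of 3 GIRK genes are shown because these genes rose together and listed isoforms have annotated starts there, though no start site was measured. They are RefSeq sequences on GRCm38.p6, 300 bases each, that lie at chr1:172329273-172329572 (minus strand), chr2:55435720-55436019 (plus strand) and chr9:32344295-32344594 (minus strand), and a listed isoform starts within 5 bases of each RefSeq start. Capitals mark a core promoter box (TATAAA), a site recognised by OTX and CRX homeodomain proteins (TAATCC) and a GC-rich box (GGGCGG). Each was searched on both strands, so that the capitals in Kcnj9 that read GGATTA are the homeodomain site on the other strand.
Kcnj9: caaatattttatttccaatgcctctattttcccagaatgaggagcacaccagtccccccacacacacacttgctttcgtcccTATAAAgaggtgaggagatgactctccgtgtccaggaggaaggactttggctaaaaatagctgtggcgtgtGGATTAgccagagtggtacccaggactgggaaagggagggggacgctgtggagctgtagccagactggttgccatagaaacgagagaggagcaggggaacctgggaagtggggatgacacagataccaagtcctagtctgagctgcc
Kcnj3: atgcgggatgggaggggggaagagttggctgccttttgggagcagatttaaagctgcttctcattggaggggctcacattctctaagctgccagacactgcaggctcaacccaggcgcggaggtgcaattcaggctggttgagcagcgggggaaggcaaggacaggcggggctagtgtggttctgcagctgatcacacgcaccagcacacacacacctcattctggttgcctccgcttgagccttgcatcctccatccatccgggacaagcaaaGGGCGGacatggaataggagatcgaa
Kcnj5: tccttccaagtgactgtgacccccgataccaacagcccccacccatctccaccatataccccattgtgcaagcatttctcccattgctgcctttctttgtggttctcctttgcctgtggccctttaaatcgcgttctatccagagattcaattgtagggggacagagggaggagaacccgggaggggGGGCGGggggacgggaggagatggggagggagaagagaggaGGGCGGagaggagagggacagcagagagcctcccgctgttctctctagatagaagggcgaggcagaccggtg
Kcnj9 holds TATAAA and TAATCC but no GGGCGG, Kcnj3 holds 1 GGGCGG and Kcnj5 holds 2. Of all 32851 RefSeq promoters, 13.6% hold TATAAA, 7.06% TAATCC and 35.7% GGGCGG, and of the 69 promoters of 50 channel symbols 2, 3 and 36 do. CACGTG and TGACGTCA, searched the same way, are in none of the 3 and in 4 and 0 of the 69. These matches describe the letters only.

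Kcnj12, a strong inward rectifier (Kir2.2), measured 2.92 and 2.91 FPKM at E18, 4.43 and 3.29 at P5 and, in the Adult pair, 8.87 and 11.7 and rose by 1.22 (SE 0.19, adjusted p = 0.0022). Kcnj11, the pore of the ATP-sensitive channel, measured 3.68 and 4.25 FPKM at E18, 5.18 and 5.37 at P5 and, in the Adult pair, 2.72 and 3.57. It alone of the 8 fell, with a change of -0.61 (SE 0.17, adjusted p = 0.02), a call lost without either P5 library or Adult replicate 1 (adjusted p up to 0.075). Kcnj10, the main Kir channel of Müller glia (Kir4.1), measured 0.124 and 0.0174 FPKM at E18, 0.0111 and 0.0241 at P5 and, in the Adult pair, 2.26 and 3.69, a rise of 1.94 (SE 0.25, adjusted p = 0.00093). Of 12 tested glial markers, 10 also rose from P5, among them Aqp4 and Glul, while Vim and Gpr37 were not called. Against E18, Vim and Gpr37 were lower, with changes of -0.94 and -0.51. Aqp4 measured 0.0757 and 0.0553 FPKM at E18, 0.0448 and 0.0376 at P5 and, in the Adult pair, 19.9 and 24.8. Glul measured 125 and 120 FPKM at E18, 94.4 and 103 at P5 and, in the Adult pair, 616 and 702. Adult Kcnj10 was thus low beside Kcnj9, at 1.6% and 2.4% of the summed Kir FPKM, and both it and the glial sum were higher in Adult library 2. Its neighbour Kcnj9 lies 11891 bases away on chromosome 1, on the other strand. Kcnj14 (Kir2.4) was under 0.001 FPKM in all 4 younger libraries, 41.5 in Adult library 1 and 6.02 in Adult library 2, and its change from P5 of 4.11 (SE 0.75, adjusted p = 0.0041) was 2.81 without Adult replicate 1 and 5.41 without Adult replicate 2. Kcnj8 and Kcnj13 are not among the listed symbols and were not analysed here.

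Of the 6 tested K2P genes, 3 rose from P5 to Adult and 1 fell, beside 26.2% and 33.7% of all tested genes. Of the 3, Kcnk12 passed the filter only through its Adult values. The leading gene changed. Kcnk10, a leak channel opened by stretch and lipids, measured 31.5 and 41.2 FPKM at E18, 28.0 and 25.7 at P5 and, in the Adult pair, 1.501 and 0.761, a change of -3.73 (SE 0.21, adjusted p = 6.8e-05) from P5 and a ratio of the means of 23.7. Kcnk1 (TWIK-1) measured 9.16 and 7.68 FPKM at E18, 11.1 and 12.3 at P5 and, in the Adult pair, 36.0 and 42.2, a rise of 1.66 (SE 0.14, adjusted p = 0.00022). As shares of the summed K2P FPKM, Kcnk10 held 70.3% and 76.0% at E18, 55.1% and 52.2% at P5 and, in the Adult pair, 2.82% and 1.21%. Kcnk1 held 20.4% and 14.1% at E18, 21.8% and 25.0% at P5 and, in the Adult pair, 67.6% and 66.8%, so the order of the pair turned. The K2P sum was 44.8 to 54.3 FPKM in the younger libraries and 53.3 and 63.2 in Adult. Kcnk12, a silent relative, measured 0.460 and 0.668 FPKM at E18, 1.09 and 0.993 at P5 and, in the Adult pair, 2.80 and 2.295 and rose by 0.80 (SE 0.19, adjusted p = 0.012). Kcnk3, the TASK-1 relative of Kcnk9, measured 0.791 and 1.79 FPKM at E18, 3.14 and 4.09 at P5 and, in the Adult pair, 4.64 and 5.72; its change was 1.46 (SE 0.26, adjusted p = 0.0033) against E18 and 0.42 (SE 0.26, adjusted p = 0.2) from P5, and only the first was called. Kcnk9 was not called from P5 without P5 library b (adjusted p = 0.052). Kcnk4 was called in none of the 3 comparisons.

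**Figure D3:**
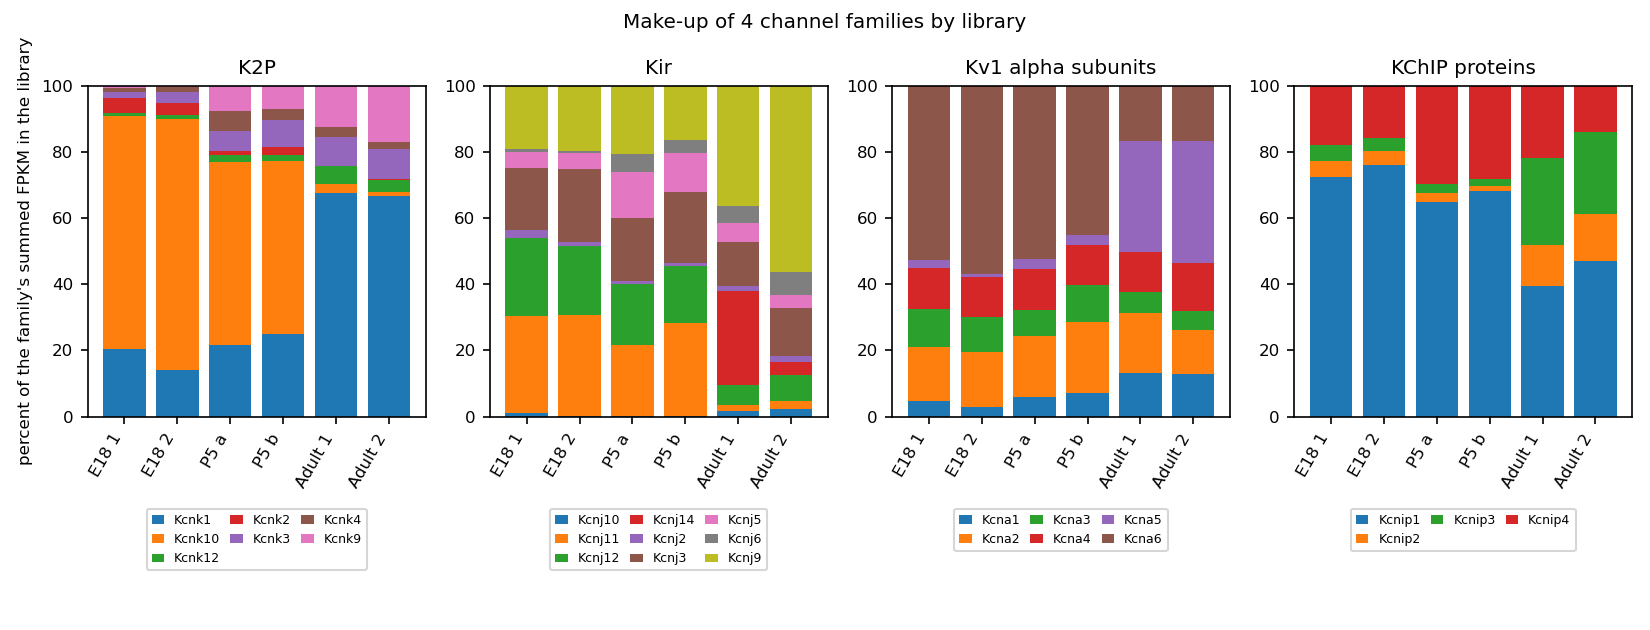
Share of each gene in the summed FPKM of its family in each of the 6 libraries, as percent, for K2P, Kir, Kv1 and KChIP genes. Kcnk10 goes from 70.3% and 76.0% of the K2P sum at E18 to 2.8% and 1.2% in Adult while Kcnk1 reaches 67.6% and 66.8%, and the 2 Adult libraries differ most in Kcnj14.

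The calcium- or sodium-activated channels had 2 rises and 1 fall among 5 tested from P5 to Adult. Of all tested genes, 26.2% were called higher and 33.7% lower. Kcnma1 rose by 1.58 (SE 0.12, adjusted p = 0.00014). Kcnt1, the sodium-activated Slack channel, measured 3.72 and 4.46 FPKM at E18, 8.32 and 6.73 at P5 and, in the Adult pair, 12.7 and 16.6 and rose by 0.87 (SE 0.18, adjusted p = 0.0074). Kcnn2, a small-conductance SK channel, measured 6.05 and 6.54 FPKM at E18, 10.7 and 8.29 at P5 and, in the Adult pair, 11.8 and 14.8. Its change of 0.96 (SE 0.17, adjusted p = 0.0036) against E18 was called, and that from P5 was not. Kcnn1, another SK gene, measured 5.70 and 7.18 FPKM at E18, 10.004 and 5.15 at P5 and, in the Adult pair, 3.48 and 3.45 and fell by 0.88 (SE 0.28, adjusted p = 0.034), a call that remained without P5 library b and was lost without each of the other 5 libraries, with adjusted p up to 0.12. Kcnu1, a channel best known from sperm, measured 1.83 and 1.99 FPKM at E18, 3.87 and 2.19 at P5 and, in the Adult pair, 1.51 and 1.56 and was called in no comparison.

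All 4 KChIP genes were higher in Adult than at E18, at different times. Kcnip4 and Kcnip1 had reached their Adult range by P5, while Kcnip3 and Kcnip2 moved afterwards. Kcnip3, also known as the calcium-dependent repressor DREAM, measured 1.09 and 1.15 FPKM at E18, 2.33 and 1.45 at P5 and, in the Adult pair, 35.1 and 39.7, a change of 3.74 (SE 0.19, adjusted p = 4.8e-05) from P5. Kcnip2 measured 1.15 and 1.19 FPKM at E18, 2.20 and 1.35 at P5 and, in the Adult pair, 16.5 and 22.4, a change of 2.89 (SE 0.22, adjusted p = 0.00015). From P5 to Adult, Kcnip4 changed by 0.07 (SE 0.16, adjusted p = 0.73) and Kcnip1 by 0.19 (SE 0.20, adjusted p = 0.44); with TPM these values were -0.66 and -0.55 and were called lower. Kcnip3 held 1.9% to 4.7% of the summed KChIP FPKM in the younger libraries and 26.5% and 25.0% in Adult.

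Kcnmb4, the neuronal beta subunit of BK channels, measured 16.4 and 15.9 FPKM at E18, 14.8 and 20.3 at P5 and, in the Adult pair, 11.8 and 12.2, a change of -0.50 (SE 0.16, adjusted p = 0.035) that was called without P5 library a and not without any other single library (adjusted p up to 0.13). Its BK partner Kcnma1 rose at both steps. Kcne1l and Kcnrg were called in no comparison, at 1.21 to 2.33 and 0.54 to 1.52 FPKM over the 6 libraries.

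Among the other transcripts, Kcnq1ot1, the long antisense RNA of the imprinted Kcnq1 region, measured 0.917 and 0.760 FPKM at E18, 0.614 and 0.871 at P5 and, in the Adult pair, 2.80 and 3.42 and rose by 1.24 (SE 0.19, adjusted p = 0.0022). Kcnmb4os2 measured 5.67 and 4.57 FPKM at E18, 4.57 and 4.78 at P5 and, in the Adult pair, 3.47 and 2.89 and was lower in Adult than at E18, with a change of -0.55 (SE 0.16, adjusted p = 0.027), a call lost without either E18 library or Adult replicate 2 (adjusted p up to 0.18). The strand used in counting is not given in the sources used here, so reads of Kcnmb4os2 and Kcnmb4, of Kcnab3os and Kcnab3, of Kcnd3os and Kcnd3, and of Kcnq1ot1 and Kcnq1, which overlap on opposite strands, cannot be told apart. By GENCODE vM21, exons of 25 of the 70 symbols overlap an exon of another gene.

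The other 10 members averaged under 1 FPKM and were not tested. Of these, Kcnk2 (TREK-1) measured 2.08 and 1.92 FPKM at E18, 0.640 and 1.09 at P5 and, in the Adult pair, 0 and 0.214, so it followed the order of its relative Kcnk10. Kcnj2, a strong inward rectifier, measured 0.286 and 0.162 FPKM at E18, 0.161 and 0.1495 at P5 and, in the Adult pair, 2.004 and 2.78, Kcne2 1.7e-04 and 0.0821 FPKM at E18, 2.3e-04 and 2.5e-04 at P5 and, in the Adult pair, 2.28 and 1.57, and Kcnmb2 1.32 and 1.47 FPKM at E18, 1.26 and 0.778 at P5 and, in the Adult pair, 0.139 and 0.188. Kcnj2 and Kcne2 were highest in both Adult libraries and Kcnmb2 lowest. Kcns1, Kcnd1, Kcnn3, Kcnt2, Kcnd3os and Kcnab3os stayed at or under 1.96 FPKM in every library.

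Isoforms were fitted apart, 34941 in all, of which 1.63% were called from E18 to P5, 43.3% after P5 and 44.7% between E18 and Adult. Of 130 tested channel isoforms, 5 rose and 2 fell by P5. Later, 64 rose and 22 fell from P5 to Adult, and 75 were higher and 20 lower in Adult than at E18. The filter was again a mean of at least 1 FPKM over the 6 libraries. Isoforms near 0 before Adult, such as the 3156-base one of Kcnc1, thus entered through Adult alone, so the counts of rises are no support for a rise of the isoforms as a set. From P5 to Adult, Kcnc1, Kcnd3, Kcnip1, Kcnma1 and Kcnn2 had isoforms called in both directions. Isoform FPKM is divided among overlapping transcripts by the authors' software, so these values are less certain than the sums.

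Kcnip1 shows such a split most fully. Its isoform of 1840 bases, with 9 exons, measured 7.38 and 10.7 FPKM at E18, 37.5 and 33.5 at P5 and, in the Adult pair, 5.79 and 5.59. It rose by 1.88 (SE 0.19, adjusted p = 0.027) to P5 and then fell by 2.45 (SE 0.19, adjusted p = 0.00053). The isoform of 1749 bases, with 8 exons, measured 7.43 and 9.19 FPKM at E18, 13.4 and 14.5 at P5 and, in the Adult pair, 38.7 and 58.9, and rose by 1.71 (SE 0.22, adjusted p = 0.0025) from P5. The sum of the gene therefore hid opposite moves after P5. The exon that only the longer one holds is 33 bases, exon 2, at chr11:33651540-33651572 (minus strand) within the coding sequence, and it is shown because it tells the isoforms apart. It is taken from the GENCODE vM21 transcript, in capitals, with 30 bases of the exons on either side.
Kcnip1 exon: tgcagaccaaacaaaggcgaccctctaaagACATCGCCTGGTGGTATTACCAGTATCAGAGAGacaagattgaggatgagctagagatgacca
Its length is a multiple of 3, so the reading frame continues through it.

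Kcnh2 had isoforms that differ in their annotated start. The isoform of 4221 bases (15 exons) measured 7.19 and 9.47 FPKM at E18, 7.66 and 10.2 at P5 and, in the Adult pair, 17.9 and 22.8. The isoform of 3193 bases (11 exons) starts inside the gene, at position 24329591 of chromosome 5, and measured 1.37 and 0.287 FPKM at E18, 1.01 and 0.597 at P5 and, in the Adult pair, 37.2 and 44.5. From P5 the longer changed by 1.10 (SE 0.22, adjusted p = 0.0098) and the shorter by 4.54 (SE 0.32, adjusted p = 0.00041). The shorter averaged 0.830 FPKM at E18 and 0.802 at P5, and so passed the filter through Adult alone. The shorter held 2.12% to 10.5% of the gene's FPKM in the younger libraries and 55.1% and 51.1% in Adult. RefSeq (GRCm38.p6) has a start 1 base from the annotated start of the shorter isoform. The promoter of that start, at chr5:24329542-24329841 (minus strand), is shown because the shorter isoform held most of the Adult FPKM. No start site was measured, and the longer isoform held 26.6% and 26.1% in Adult. GGGCGG is in capitals.
Kcnh2: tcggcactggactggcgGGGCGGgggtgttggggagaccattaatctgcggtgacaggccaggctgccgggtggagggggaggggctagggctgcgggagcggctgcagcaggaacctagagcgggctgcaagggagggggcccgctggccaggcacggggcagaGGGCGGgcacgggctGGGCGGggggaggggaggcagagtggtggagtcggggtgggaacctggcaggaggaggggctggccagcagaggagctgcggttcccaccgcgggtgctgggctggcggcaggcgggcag
It holds 3 copies of GGGCGG, and neither TATAAA nor TAATCC.

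Kcnd3 and Kcnc1 each had an annotated and an unannotated isoform that moved apart. The Kcnd3 isoform of 7169 bases measured 4.90 and 7.33 FPKM at E18, 7.09 and 8.56 at P5 and, in the Adult pair, 0 and 0.443, while an unannotated one of 7226 bases measured 9.58 and 6.92 FPKM at E18, 12.9 and 9.13 at P5 and, in the Adult pair, 24.8 and 27.1. From P5 they changed by -2.87 (SE 0.27, adjusted p = 0.00094) and 1.18 (SE 0.22, adjusted p = 0.0081). The 57 bases between their lengths equal the length of an exon at chr3:105666962-105667018 (plus strand, coding) that the annotated transcript nearest to the unannotated one holds and the 7169-base one lacks. That transcript also differs in its first exon, of 372 bases, so the match in length does not identify the exon. Which exons the unannotated model holds is not given in the sources used here, and the exon is shown, in capitals with 30 bases on either side, as a candidate by length alone.
Kcnd3 exon: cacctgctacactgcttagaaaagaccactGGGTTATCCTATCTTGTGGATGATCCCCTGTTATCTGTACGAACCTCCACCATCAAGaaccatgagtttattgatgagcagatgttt
The Kcnc1 isoform of 3156 bases was under 0.001 FPKM in the younger libraries and 18.3 and 23.5 in Adult, while an unannotated one of 2632 bases measured 2.99 and 3.23 FPKM at E18, 3.83 and 3.44 at P5 and, in the Adult pair, 0 and 0. The main Kcnc1 isoform, of 7760 bases, rose from P5 by 1.23 (SE 0.17, adjusted p = 0.0032).

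**Figure D4:**
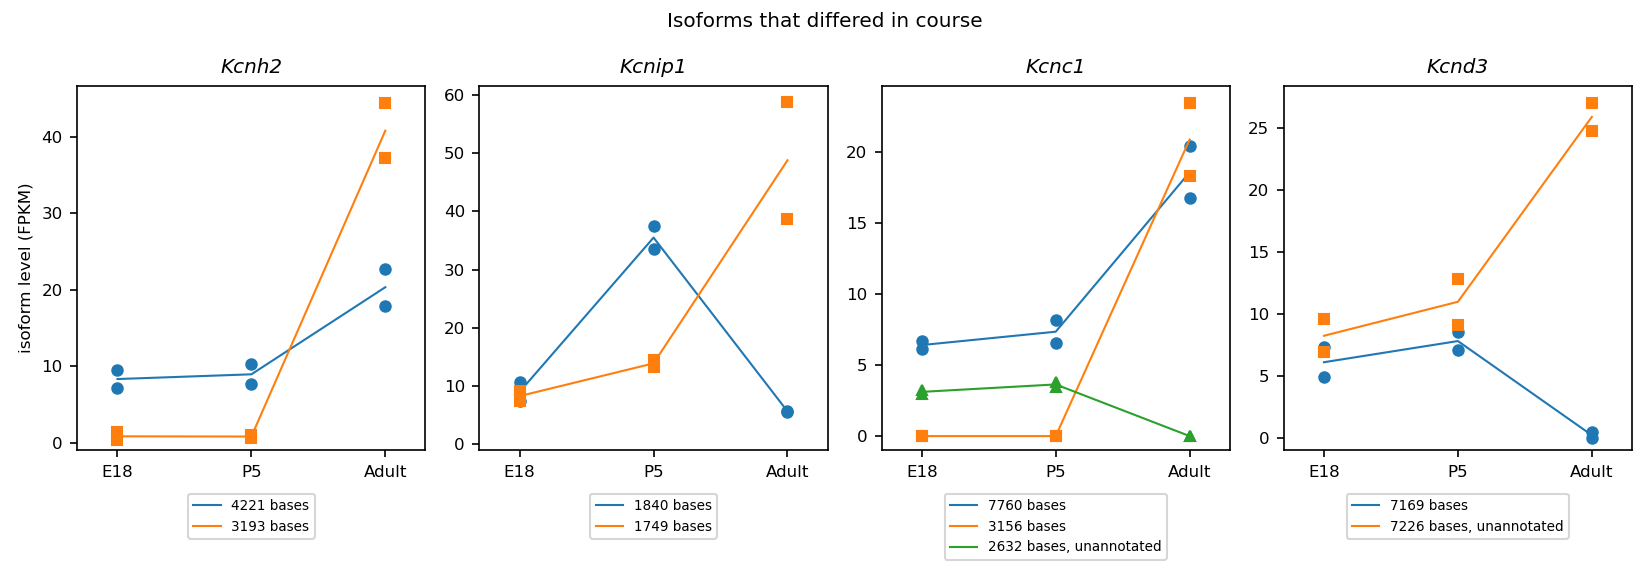
Isoform FPKM at the 3 ages for Kcnh2, Kcnip1, Kcnc1 and Kcnd3, with a point for each library and a line through the means of each age. The 1840-base Kcnip1 isoform peaks at P5 while the 1749-base one is highest in Adult, and the 3193-base Kcnh2 isoform is near 1 FPKM before Adult and at 37.2 and 44.5 in Adult.

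In Kcnma1 an isoform of 12088 bases was at 0 in all 4 younger libraries and at 5.34 and 6.37 FPKM in Adult. In Kcnip4 an isoform of 2108 bases was at 15.2 FPKM in Adult library 1 and at 0.0047 in Adult library 2, so it rests on 1 library.

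The Adult libraries agreed for most members and differed for a few. Of the 60 tested genes, 22 were higher in Adult library 1 and 38 in Adult library 2, with a median difference of -0.19 (library 1 minus library 2) against -0.0007 over all tested genes. Kcnv2 and Kcnj14 stood on the side of library 1, at 8.31 and 6.89 times the level of library 2. The rod marker sum differed the same way, by 8.22 times, and the RGC sum by 1.31 times, while the amacrine and the Müller glia and astrocyte sums were lower in library 1, at 0.82 and 0.83 times. The part of these cells in the difference was not tested.

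**Figure D5:**
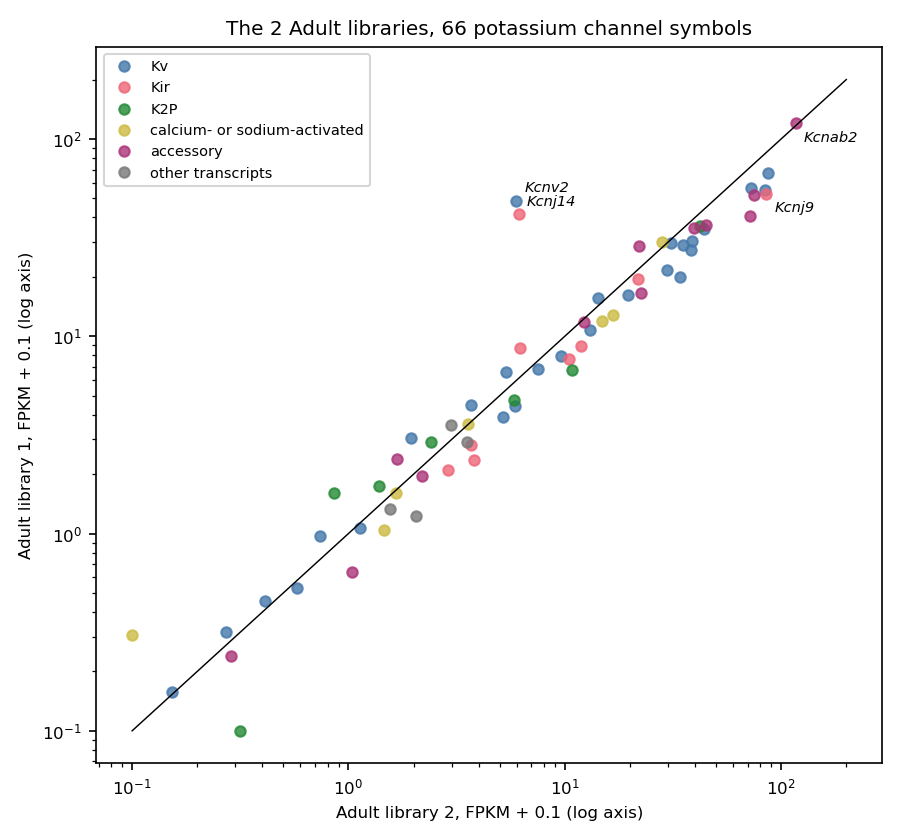
FPKM + 0.1 of 66 of the 70 symbols in Adult library 1 against Adult library 2, on log axes, with the line of equal values. Most points lie near or just below the line, and Kcnv2 and Kcnj14 lie above it.

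Other genes of the pathway were taken from lists of channel partners and related channels. Of 17 tested Kv partners and clustering proteins, 4 rose and none fell by P5, and 7 rose and 8 fell from P5 to Adult. Of all tested genes, 5.52% rose and 4.95% fell by P5, and 26.2% rose and 33.7% fell from P5 to Adult. Dlg2, a scaffold that clusters Kv1 channels, rose by 1.24 by P5 (adjusted p = 0.019), and Lgi1, a secreted Kv1 regulator, by 1.54 (adjusted p = 0.021). From P5 to Adult, Dpp10, an auxiliary subunit of Kv4 channels, measured 41.2 and 48.1 FPKM (E18), 74.3 and 70.1 (P5) and 9.62 and 6.42 (Adult) and fell by 3.04 (adjusted p = 8.1e-05), and Stx1a, a syntaxin that binds Kv2 channels, 55.9 and 62.1 FPKM (E18), 76.6 and 64.9 (P5) and 8.33 and 8.88 (Adult) with -2.90 (adjusted p = 3.1e-05). Dpp10 thus fell as Kcnd2 did, while Dpp6, its relative, changed by 0.42 (adjusted p = 0.021).

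Of 5 scaffold genes of the spike initiation zone, 2 rose and 2 fell from P5 to Adult, beside 26.2% and 33.7% of all tested genes. Sptbn4, the spectrin of that zone, measured 3.99 and 4.23 FPKM (E18), 4.89 and 5.11 (P5) and 18.3 and 17.6 (Adult) and rose by 1.66 (adjusted p = 0.00014), and Ank3, its ankyrin, by 0.56 (adjusted p = 0.0025). Of 5 tested related cation channels, 3 rose and 2 fell from P5, beside the same shares of all tested genes. Hcn2, which passes the hyperpolarization-activated current, measured 3.003 and 3.08 FPKM (E18), 7.48 and 8.25 (P5) and 18.3 and 18.02 (Adult) and rose by 1.11 (adjusted p = 0.00054). Nalcn, a sodium leak channel, rose by 1.21 by P5 (adjusted p = 0.015). The sulfonylurea receptor Abcc8, partner of Kcnj11, fell by 0.61 (adjusted p = 0.034) and the BK gamma subunit Lrrc55 changed by -1.54 (adjusted p = 0.0019).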

How the data were processed

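The deposited table holds isoform FPKM made by the authors, and per the submitters' processing notes HISAT2, Cufflinks and Cuffdiff were used with mm10; versions, strand and any scaling between libraries are not given in the sources used here. Per the file headers each isoform has a gene symbol and length. Every listed isoform reaches 1 FPKM in some column, 0.0001 stands for 0, and 9 further columns of values were not used. The P5 columns share a header, so those libraries are called a and b. Isoforms were summed per symbol, genes with a mean of at least 1 FPKM over the 6 libraries were kept, and limma 3.58.1 was run on log2(FPKM + 1) (R 4.3.3, trend, all 6 libraries, 3 residual degrees of freedom, two-sided) with Benjamini-Hochberg adjustment over 14390 genes. The script was tested on simulated data. Of the 70 symbols, 60 were tested. TPM rescaling, protein-coding rescaling, quantile normalization, other filters and pseudocounts, annotated isoforms only, fits of only the 2 ages compared and left-out libraries were tried. Coordinates and exons come from GENCODE vM21 (GRCm38, which is mm10) and promoters from RefSeq (GRCm38.p6). Numbered E18 and Adult libraries were checked for pairing (r = 0.018 across 14390 genes), and the number was not taken as a pairing. Full library values were given, by a rule, to members called from E18 to P5, to the 4 with the smallest p and the 3 highest per group, and to Kcnj10, Kcnj8, Kcnj13, Kcnv2 and Kcnip4. Other members, such as Kcna3, Kcna6, Kcnb2, Kcnc4 and Kcnq3, were given full values outside this rule. Values of 4 members and of 1 related channel gene are not reported here, though counts and sums include them. The members and all lists were chosen with earlier results of these data known.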

Additional observations from a re-analysis of the deposited data

How the results depend on the processing

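The count of potassium channel genes called higher from E18 to P5, 7 in the fit reported, was 12 with a pseudocount of 0.1 FPKM, 21 with TPM and 11 when only the 2 ages were fitted. The count called lower, 2, was 1 with the pseudocount of 0.1 FPKM. With each library left out in turn these counts ran from 0 to 8 and from 0 to 1. From P5 to Adult the counts of 35 and 12 ran from 31 to 36 and from 9 to 12 without each library, and with TPM 24 of 67 tested were lower. Against E18 the counts of 40 and 10 ran from 38 to 41 and from 6 to 13, the 6 without E18 replicate 2, and with TPM 19 of 67 were lower. A replicate block, possible only for Adult against E18, gave 41 and 11; since the numbers were not shown to pair the libraries, this is only another fit. The other settings left these counts within 1.5 times. For 65 single gene changes, 862 values under alternatives were computed: 763 kept direction and call, 90 kept direction and lost the call, and 9 changed sign; beyond these, 42 values called in neither fit changed sign. With TPM, from P5 to Adult, Kcnb2 was at -0.11, Kcnc4 at -0.015, Kcnd3 at -0.27, Kcnh7 at -0.44, Kcnip1 at -0.55 and Kcnip4 at -0.66, and against E18 Kcnh7 was at -0.040. With annotated isoforms only, Kcnd3 was at -1.49 against P5 and -1.12 against E18, because that setting leaves out its unannotated isoforms. For the TPM values the cause was not tested beyond the shift of all genes. Depth is unknown, so no limit from counting can be given, and 2 libraries an age leave 3 residual degrees of freedom.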
